A study of Mus musculus with 8 samples.

Results

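Müller glia span the full thickness of the retina and support its neurons. They take up glutamate and convert it to glutamine, buffer potassium and water, recycle retinoids and form part of the outer limiting membrane. Here they were examined in single-nucleus RNA sequencing (snRNA-seq) of adult mouse retina, as nuclei that carried Müller glia transcripts and no transcript of 3 endothelial genes. Of 39496 barcodes with at least 1000 unique molecular identifiers (UMIs, each counting 1 captured RNA molecule) and at most 5% mitochondrial UMIs, 2039 met this rule. The members were chosen by measured UMIs of marker genes in each nucleus. A nucleus entered if Slc1a3, Rlbp1, Glul, Gldc and Abca8a together had at least 4 UMIs with at least 3 of the 5 genes detected, if Cldn5, Pecam1 and Cdh5 had 0 UMIs, and if Rbpms plus Slc17a6 and Gad1 plus Gad2 each had at most 1 UMI.

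The libraries came from 4 pools of Piezo2f/f control retinae (replicates 1 to 4) and 4 pools of Olig2-cre;Piezo2f/f retinae (cKO, replicates 10 to 13), with 6 retinae in a pool at postnatal day 120. The mice were female. All animals of both groups carried floxed Piezo2, and the cKO mice also carried Cre recombinase driven by Olig2, a transcription factor of the oligodendrocyte lineage, from an allele that left them with 1 working copy of Olig2 by the study's methods. Nuclei had been sorted for NeuN and RBPMS, which select neurons and retinal ganglion cells (RGCs), so that glia reached the libraries past a sort directed at RGCs and their number reflects the sort as well as the tissue. Nothing in the labels said which animals entered which pool. The p-values are read against the spread between pools, except in a fit without a filter on low counts.

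The control libraries held 388, 269, 319 and 112 Müller glia nuclei in replicates 1 to 4. The cKO libraries held 313, 180, 304 and 154 in replicates 10 to 13. These were 7.47, 4.77, 6.17 and 4.12% of passing barcodes in controls and 5.88, 3.44, 5.18 and 3.54% in cKO, so the groups overlapped. Control libraries averaged 5.63 ± 1.49% and cKO libraries 4.51 ± 1.22% (SD, 4 libraries a group). The difference of -1.12 percentage points did not exceed the variation from library to library (exact permutation over 70 assignments, two-sided p = 0.286, where 0.0286 is the smallest possible). Over the 4 genotype differences tested this way, the adjusted p was 0.8.

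Depth was modest. Glia nuclei had a library median of 1825.5 to 3607 UMIs and 1214.5 to 1914 genes, against 5170 to 11252 UMIs in RGC nuclei. Summed over nuclei, a library gave 373333 to 945072 glial UMIs. Levels are given as CPM, the UMIs of a gene scaled to the total UMIs (in units of 1e6) of the glia nuclei of a library, and are compared between libraries or cell classes, not between genes. No barcode was shared between the glia nuclei of different libraries. Empty droplets (40000 barcodes a library, ranked below the nuclei) held a median of 110 to 209 UMIs and gave the profile of free RNA. An empty droplet's worth of free RNA in each nucleus would make up 5.86% of all glial UMIs.

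Piezo2, the gene targeted in the cKO, was scarce in Müller glia. It encodes a mechanically activated cation channel. Control glia held 1, 0, 2 and 0 Piezo2 UMIs in replicates 1 to 4, and cKO glia held 1, 1, 3 and 0 in replicates 10 to 13. The mean was 1.31 ± 1.30 CPM in glia, against 13.8 ± 3.61 CPM in RGC nuclei (at least 3 UMIs of Rbpms and Slc17a6) and 4.03 CPM in free RNA. It was lower in glia than in RGC nuclei in 8 of 8 libraries (SD, n = 8; two-sided exact paired permutation test over libraries, p = 0.00781, the smallest that 8 pairs allow, and 0.0100 adjusted over 9 comparisons of glia with other classes). The difference from amacrine nuclei (2.25 CPM, adjusted p = 0.102) and from rod-marker nuclei (4.60 CPM, adjusted p = 0.0879) did not pass the same exact test. An empty droplet's worth of free RNA per nucleus corresponds to 1.32 Piezo2 UMIs, where 8 were counted. With 0 to 3 UMIs a library the deletion could not be checked in these nuclei. Removal of internal sequence also need not lower a 3′ count.

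The 5 genes of the rule were high in every library, as the rule required, and are given as a description. Glutamine synthetase (Glul), which makes glutamine from glutamate, was at 1302 to 1591 CPM and the glutamate transporter gene Slc1a3 at 949 to 1193 CPM. Rlbp1, which encodes a retinoid-binding protein, was at 400 to 558 CPM. The glycine-cleavage gene Gldc was at 276 to 419 CPM and the ABC transporter gene Abca8a at 1675 to 2156 CPM. Of the 2039 nuclei, 478 had 3 of the 5 genes, 878 had 4 and 683 had all 5. Abca8a was found in 1963 nuclei (96.3%), Glul in 1957 (96.0%), Slc1a3 in 1845 (90.5%), Rlbp1 in 1398 (68.6%) and Gldc in 1198 (58.8%). At the edge of the rule, 49 nuclei sat just inside with 4 glial UMIs and 29 just outside with 3. A further 175 nuclei with at least 4 UMIs had 2 of the 5 genes detected, 293 exceeded the limit on Rbpms plus Slc17a6, 32 exceeded that on Gad1 plus Gad2, and 18 carried an endothelial UMI, 17 of them exactly 1.

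Müller markers that the rule did not use were present as well. All 14 had UMIs, and their summed level was 5674 to 8874 CPM in glia libraries against a mean of 178 CPM in RGC nuclei and 2725 CPM in free RNA. The transcription factor genes Lhx2 and Rax had means of 146 and 143 CPM, against 0.860 and 2.23 CPM in RGC nuclei. Crb1, a polarity gene of the outer limiting membrane, was at 1047 to 1283 CPM and found in 1825 nuclei (89.5%). Apoe, the main lipid carrier of glia, was found in 1870 nuclei (91.7%). The water channel gene Aqp4 was found in 1289 nuclei (63.2%). Sox9 was found in 285 nuclei (14.0%). In free RNA Crb1 was at 104 CPM against a glial mean of 1184, Apoe at 816 against 1627, Aqp4 at 70.2 against 439 and Sox9 at 30.2 against 59.1. The intermediate filament gene Vim, with 51.0 CPM in glia, and UMIs in 250 nuclei (12.3%), lay below its level of 126 CPM in free RNA. Car2, also among the 14, had a glial mean of 209 CPM and likewise lay below its 329 CPM in free RNA.

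**Figure D1:**
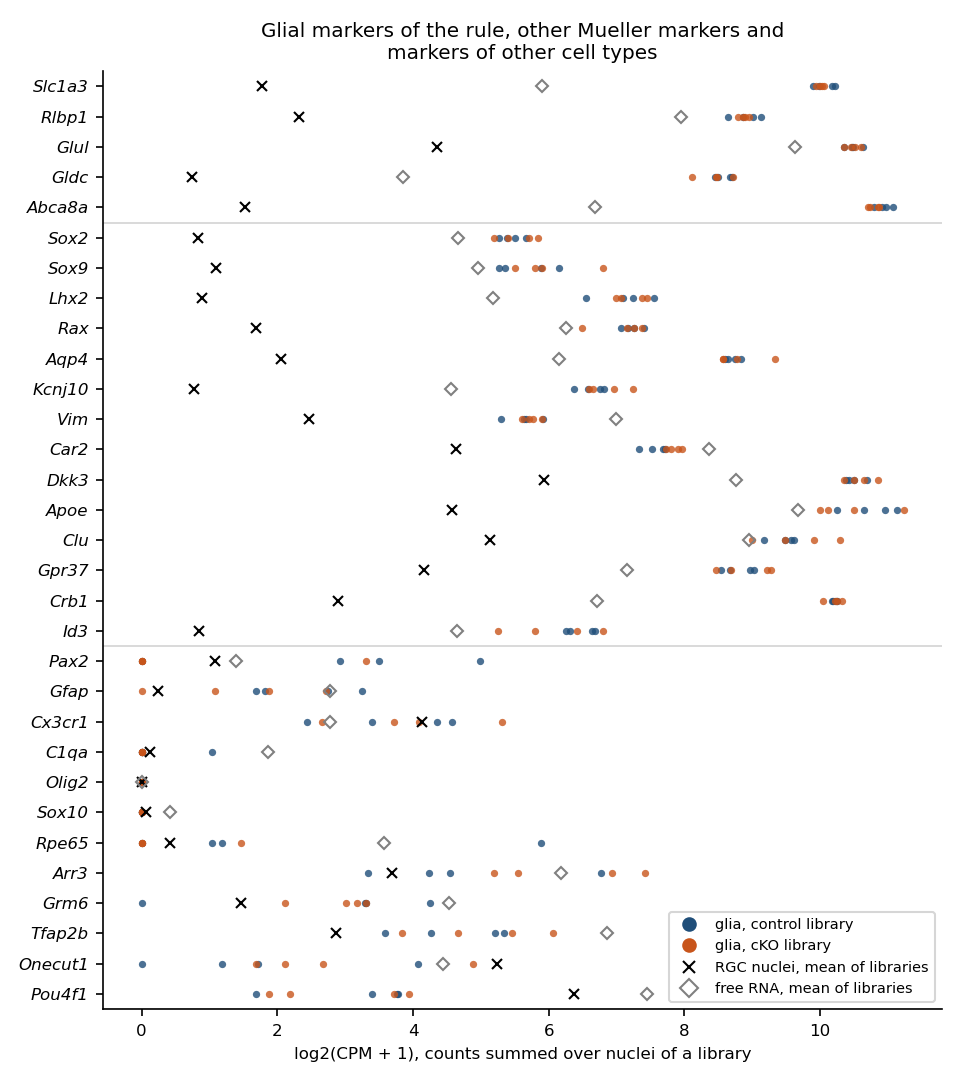
Level of the 5 glial genes of the rule (top), 14 other Müller markers (middle) and markers of other retinal cell types (bottom), as log2(CPM + 1) of counts summed per library; dots are the 4 control and 4 cKO libraries of glia nuclei, crosses the mean of RGC nuclei and diamonds the mean of free RNA. The upper and middle groups lie to the right of the RGC crosses in every library, and Olig2 and Sox10 lie at 0.

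The label was checked against other cell types. The oligodendrocyte markers Olig1, Olig2, Sox10 and Mog had 0 UMIs in all 2039 nuclei, and the other members of the lineage list held 181. The 8 genes of the list summed to 13.3 to 47.6 CPM, against means of 23.9 CPM in RGC nuclei and 26.1 CPM in free RNA. A count of 0 in 5800787 UMIs allows up to 0.517 CPM, counting 3 UMIs as the limit. Cre is driven by Olig2 in the cKO mice, and no Olig2 RNA was seen in these nuclei at this depth. Whether Cre had acted in these cells at an earlier stage was not tested and cannot be read from this count. Of the complement genes of microglia, C1qa had 1 UMI and C1qb 1 UMI, whereas P2ry12 had 708. P2ry12 was found in 498 glia nuclei (24.4%). It lies opposite Med12l and was at 55.1 CPM in RGC nuclei, and the source of its UMIs was not tested. The 6 microglia genes summed to 117 to 236 CPM in glia libraries, against means of 100 CPM in RGC nuclei and 114 CPM in free RNA. Astrocytes are not excluded by the rule. Pax2, which marks retinal astrocytes, had a UMI in 11 of 2039 nuclei, 10 in control libraries (0, 2, 7 and 1 in replicates 1 to 4) and 1 in cKO, and Gfap had one in 16 nuclei. The 6 astrocyte genes summed to 97.9, 151, 151 and 113 CPM in controls and 104, 131, 107 and 95.8 CPM in cKO.

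Photoreceptor RNA was present at levels below those of free RNA. The 7 rod genes summed to 1449 to 4246 CPM in glia against 12598 CPM in free RNA, with the highest value in cKO replicate 11 and 1765 to 2147 CPM in the other cKO libraries. An empty droplet's worth of free RNA in each nucleus would supply 37.8% of these rod UMIs. The 6 cone genes summed to 52.4 to 248 CPM, the 7 bipolar genes to 257 to 604 CPM, the 6 amacrine genes to 26.5 to 128 CPM, the 4 horizontal cell genes to 20.5 to 83.4 CPM and the 7 RGC genes to 146 to 382 CPM. The 5 pigment epithelium genes summed to 6.67 to 99.0 CPM, and of the 54 UMIs of Rpe65, 51 were in control replicate 2. The 6 crystallin genes of the lens summed to 56.0, 282, 597 and 30.9 CPM in control replicates 1 to 4 and 53.3, 88.4, 24.4 and 8.87 CPM in cKO replicates 10 to 13. In free RNA they summed to 335, 2884, 8031 and 63.3 CPM in the controls and 165, 178, 106 and 70.4 CPM in cKO. An empty droplet's worth of free RNA in each nucleus would supply 63.7% of the crystallin UMIs. For each of these lists the genotype difference was within the spread of the libraries, with the lowest p for the rod genes (exact permutation, two-sided, unadjusted p = 0.143).

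Among 2964 genes outside the rule with at least 50 CPM in glia of every library and at least 3 UMIs in the other nuclei of each, 15 were named for the highest ratio of the glia level to that of all other nuclei. The comparison is a description, since the markers that chose the nuclei were read from the same cells. The other nuclei were all passing barcodes outside the rule, including those that carried glial markers but failed another part of it. These 15 genes were 94.6 to 170 times higher in glia. They held 3 long noncoding RNAs, Gm49470 (170-fold), BC055402 (162-fold) and Gm3764 (128-fold). Transport and metabolism gave Abcb11, the bile salt export pump (129-fold), Slc13a5, a citrate transporter (106-fold), Folh1, which cleaves the neuropeptide NAAG to glutamate (125-fold), Etnppl, an ethanolamine-phosphate lyase (97.6-fold), and Ust, a sulfotransferase of glycosaminoglycans (102-fold). Receptors and transcription factors were the bile acid receptor Nr1h4 (114-fold), the orphan nuclear receptor Nr2e1 (108-fold), the Hedgehog effector Gli3 (96.4-fold), the Wnt effector Tcf7l2 (94.6-fold) and Mertk, a receptor for phagocytosis (124-fold). Ninj2 was 115-fold higher. The lowest ratio of these 15 genes in any 1 library was 50.2, for Gli3. The remaining gene was Flt1, which encodes VEGF receptor 1 and is widely used as an endothelial marker, at 125-fold (rank 5).

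Flt1 was therefore examined as a check on the glial source. Flt1 (GRCm39 chromosome 5, 147498414 to 147662826, minus strand, with no other counted gene overlapping it) was at 1899, 1785, 1864 and 1670 CPM in glia of control replicates 1 to 4 and at 1944, 1583, 1930 and 1681 CPM in cKO replicates 10 to 13. The lowest library, with 1583 CPM, rested on 591 UMIs and the highest UMI count was 1762. A Flt1 UMI was found in 88.3 to 96.7% of glia nuclei of a library, and in 76.1 to 83.1% with every nucleus thinned to 1000 UMIs. In RGC nuclei the level was 1.12 to 2.36 CPM and the share 1.05 to 1.84% (0.0450 to 0.306% thinned), and free RNA held 31.2 to 65.7 CPM. All 8 libraries had more Flt1 in glia than in RGC nuclei, with means of 1794 ± 136 and 1.88 ± 0.385 CPM (SD, n = 8; two-sided exact paired permutation test, p = 0.00781, the smallest that 8 pairs allow, and 0.0100 adjusted over 9 comparisons). The mean was 3.53 CPM in amacrine nuclei and 14.7 CPM in rod-marker nuclei, with the same p and adjusted p by the same exact test. RGC, amacrine and rod-marker nuclei were taken with at most 1 UMI of the glial genes, and the rod-marker gate also held cone and bipolar transcripts. In the 4 control libraries alone the exact test cannot go below 0.125, which it reached for Flt1 in each comparison.

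The amount of Flt1 was set against what other sources would bring. An empty droplet's worth of free RNA per nucleus corresponds to 17.0 Flt1 UMIs over all glia, where 10606 were counted. In the whole series 8 nuclei met an endothelial definition, 7 in control and 1 in cKO libraries. The definition was at least 3 UMIs of Cldn5, Pecam1 and Cdh5, at least 2 genes detected and at most 1 glial-gene UMI. Pooled, these nuclei had 5585 CPM of Flt1, against 1828 CPM pooled over all glia. Their Piezo1 rested on 1 UMI, in control replicate 3. In these 8 nuclei Ptprb had 32.6 UMIs, Egfl7 19.1 and Mecom 46.1 UMIs for every 100 UMIs of Flt1. In Müller glia the same genes had 0.0849, 0.104 and 1.07 UMIs for every 100 UMIs of Flt1. Over all glia Tie1 had 0 UMIs, Vwf 6, Eng 6, Ptprb 9, Egfl7 11, Emcn 14, Tek 47 and Mecom 114. Mecom averaged 17.5 CPM in glia, against 2.73 CPM in RGC nuclei and 3.77 CPM in free RNA. Cldn5, Pecam1 and Cdh5 were at 0 by the rule.

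Kdr and Pdgfrb were present in glia beside Flt1. Kdr, VEGF receptor 2, was at 387 to 597 CPM in glia of every library and was detected in 1302 nuclei (63.9%), against a mean of 2.09 CPM in RGC nuclei and 66.5 CPM in free RNA. It had 25.5 UMIs for every 100 Flt1 UMIs in glia, and 2 UMIs beside 141 of Flt1 in the 8 endothelial nuclei. Pdgfrb, a receptor of pericytes, was at 122 to 169 CPM in glia and detected in 616 nuclei (30.2%), with 0.663 CPM in RGC nuclei and 0 UMIs in the 8 endothelial nuclei. The pericyte and smooth muscle genes Acta2, Myh11, Kcnj8, Abcc9, Rgs5 and Notch3 had 0, 1, 3, 5, 20 and 30 UMIs over all glia.

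**Figure D2:**
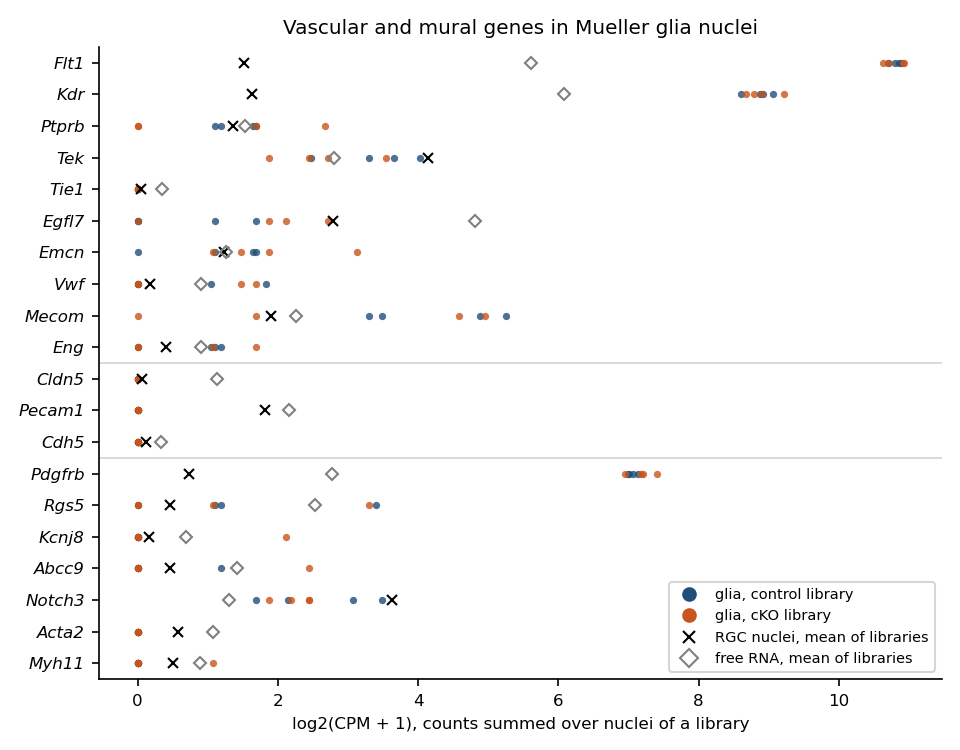
Level of 10 vascular genes (top), the 3 endothelial genes that the rule excludes (middle) and 7 pericyte and smooth muscle genes (bottom), as log2(CPM + 1) of counts summed per library, with dots for the 4 control and 4 cKO libraries of glia nuclei, crosses for the mean of RGC nuclei and diamonds for the mean of free RNA. Flt1, Kdr and Pdgfrb lie far above RGC nuclei and free RNA in all 8 libraries, whereas the others reach at most 37.0 CPM, for Mecom in control replicate 3.

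Piezo1, which encodes the other channel of the Piezo family (GRCm39 chromosome 8, 123208437 to 123278072, minus strand, overlapped by Ctu2 on the opposite strand) was at 19.1, 17.1, 20.1 and 11.0 CPM in glia of control replicates 1 to 4 and at 21.1, 16.1, 15.6 and 7.09 CPM in cKO replicates 10 to 13. They rested on 15, 15, 19 and 5 UMIs in the control libraries and on 19, 6, 14 and 4 in the cKO libraries, 97 in all. An empty droplet's worth of free RNA per nucleus corresponds to 0.523 Piezo1 UMIs. In RGC nuclei Piezo1 was at 0.448 to 0.983 CPM. Every library had more Piezo1 in glia, with means of 15.9 ± 4.74 CPM in glia and 0.741 ± 0.192 CPM in RGC nuclei, a 21.4-fold difference (SD, n = 8; two-sided exact paired permutation p = 0.00781, 0.0100 adjusted over 9 comparisons). The difference was 12.3 CPM with nuclei thinned to 1000 UMIs (exact paired permutation p = 0.0156) and 8.83 CPM in nuclei with 0 UMIs of the vascular genes other than Flt1 and of the pericyte genes (exact paired permutation p = 0.0312), and under both settings the lowest glial library held 0 Piezo1 UMIs. Against means of 2.39 CPM in amacrine and 2.13 CPM in rod-marker nuclei the difference was 6.66-fold and 7.47-fold, with the same exact p and adjusted p. In controls alone the difference from each of the 3 classes had the lowest p possible, 0.125, by the exact test.

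A Piezo1 UMI was found in 88 glia nuclei. Their share was 2.60 to 5.33% per library at a median depth of 1825.5 to 3607 UMIs. RGC nuclei had a share of 0.310 to 0.812% at a greater depth. With every nucleus thinned to 1000 UMIs the mean share was 1.30% in glia and 0.0726% in RGC nuclei, and the glial shares then rested on 0 to 12 UMIs a library. Of the 88 nuclei, 86 also carried Flt1, which 137 of all 2039 glia nuclei lacked. In the 137 glia nuclei without a Flt1 UMI there were 2 Piezo1 UMIs, which is 6.06 CPM (95% Poisson interval 0.734 to 21.9). Piezo1 was at 17.0 CPM (12.1 to 23.3) in the 924 nuclei with 1 to 4 Flt1 UMIs and at 17.6 CPM (13.3 to 22.9) in the 978 with 5 or more. The 3 intervals overlap and cover counting error only.

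The endothelial contribution was examined from the other side, in the 18 nuclei that met the glial part of the rule but carried an endothelial UMI. They held 1 Piezo1 UMI in 65093 UMIs and a Flt1 UMI in 17 of 18. In the 6 libraries that had such nuclei, Piezo1 averaged 22.8 CPM with and 15.8 CPM without endothelial UMIs (exact paired permutation p = 1), the former from that 1 UMI in control replicate 2. Without that library the difference of 6.94 CPM became -15.6 CPM. Flt1 averaged 1664 and 1790 CPM in the same order (exact paired permutation p = 0.875, where 0.0312 is the smallest possible). Where nuclei with any UMI of the other 9 vascular genes or the 7 mural genes were left out too, a choice made after the levels were seen, 504 glia nuclei remained and Piezo1 was at 11.1 CPM from 13 UMIs (95% Poisson interval 5.90 to 18.9). With Flt1 also required to be at 0, 52 nuclei remained, and 0 Piezo1 UMIs in their 106135 UMIs allow up to 28.3 CPM.

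**Figure D3:**
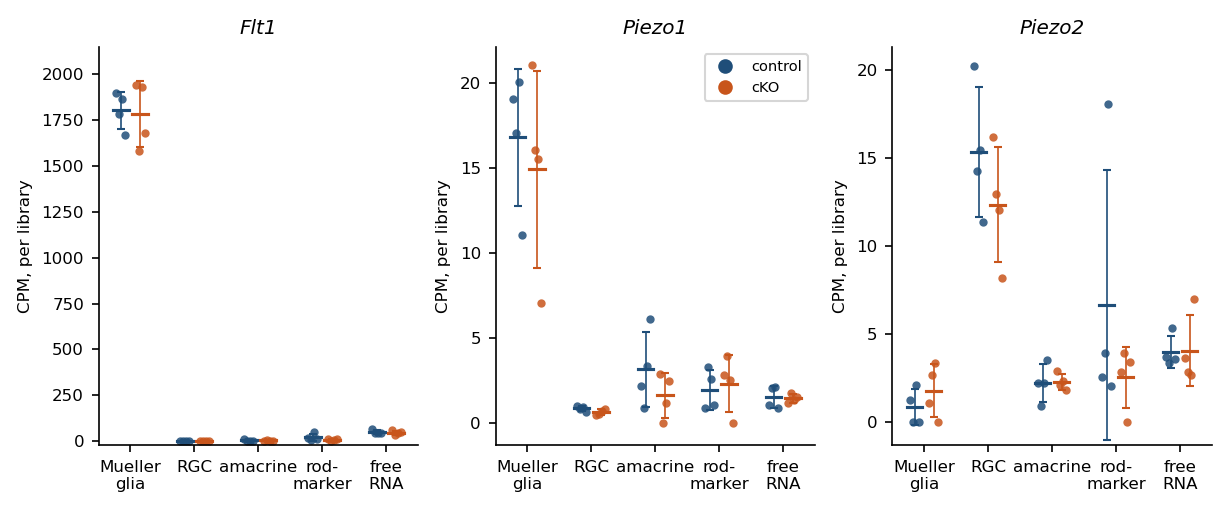
CPM of Flt1, Piezo1 and Piezo2 in Müller glia, RGC, amacrine and rod-marker nuclei and in free RNA, with a dot for each of the 4 control and 4 cKO libraries, a bar for the group mean and whiskers of 1 SD. In glia Flt1 lies between 1583 and 1944 CPM and Piezo1 between 7.09 and 21.1 CPM, above the other classes shown in every library. The mean of Piezo2 is highest in RGC nuclei, with 1 rod-marker library at 18.1 CPM. Endothelial nuclei are not shown.

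For both genes the difference between genotypes in glia was within the spread between libraries. For Piezo1 the control libraries averaged 16.8 ± 4.05 CPM and the cKO libraries 15.0 ± 5.80 CPM (SD, 4 libraries a group; difference -1.87 CPM, two-sided exact permutation p = 0.629). Flt1 averaged 1804 ± 101 and 1784 ± 180 CPM (difference -20.0 CPM, two-sided exact permutation p = 0.886). In both cases the libraries of the groups overlapped, and the Piezo1 difference turned to 0.747 CPM without cKO replicate 13, the library with 4 UMIs. It was -10.8 CPM with nuclei thinned to 1000 UMIs (exact permutation p = 0.114) and 5.12 CPM with 0 UMIs of the vascular genes other than Flt1 and of the pericyte genes (exact permutation p = 0.4).

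To ask whether deletion of Piezo2 by Olig2-cre was accompanied by changes in Müller glia, summed counts of 4 control and 4 cKO libraries were compared over 10154 genes (edgeR quasi-likelihood F test, Benjamini-Hochberg adjustment). No gene passed an adjusted p of 0.05 with an absolute log2 fold change over 0.5 (0% called, smallest adjusted p = 0.356 in edgeR), and DESeq2 called 0 as well. At an unadjusted p under 0.05 there were 300 genes (2.95%) in edgeR, 153 higher (1.51%) and 147 lower (1.45%) in cKO, and 122 genes in DESeq2. The libraries of the groups did not overlap for 236 genes (2.32%). Without a filter on low counts, 31 of 22637 genes were called, 26 lower and 5 higher in cKO. Of these 31, 7 had not entered the filtered fit and 5 were crystallins, and the highest count lay in control replicate 3 for 17 genes and in control replicate 2 for 9. The 6 genes lower in cKO that are described next, and Slc4a4 and A2m, were among the 31.

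**Figure D4:**
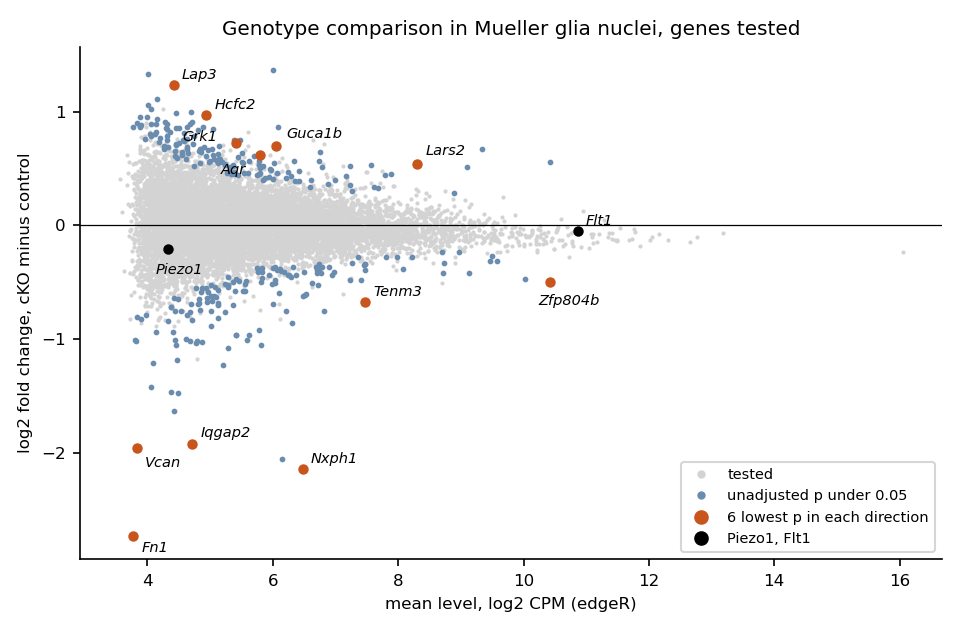
Log2 fold change (cKO minus control) against mean level (log2 CPM) for the 10154 genes tested with edgeR in glia nuclei of 4 control and 4 cKO libraries. Grey dots are all genes tested, blue dots the 300 at an unadjusted p under 0.05, orange dots the 6 genes with the lowest p in each direction and black dots Piezo1 at -0.21 and Flt1 at -0.05.

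The 6 genes with the lowest p among those lower in cKO were Iqgap2, Nxph1, Fn1, Vcan, Zfp804b and Tenm3. None passed adjustment in the filtered fit. Without the filter edgeR called all 6, with an adjusted p of 2.68e-21 for Nxph1, 3.64e-05 for Iqgap2, 0.000611 for Fn1, 0.0165 for Tenm3, 0.0262 for Zfp804b and 0.0281 for Vcan. That fit also called Rpe65 (adjusted p = 1.41e-07), with 51 of its 54 UMIs in control replicate 2. Its p-values are therefore not read as a measure of the spread between pools. With the filter, DESeq2 gave these 6 genes an adjusted p from 0.131 for Iqgap2 to 0.999 for Nxph1 and Vcan. Iqgap2, a scaffold protein of the cytoskeleton, was at 21.6, 42.1, 37.0 and 37.6 CPM in control replicates 1 to 4 and at 8.88, 8.04, 5.56 and 16.0 CPM in cKO replicates 10 to 13. The groups did not overlap, and the log2 fold change was -1.92 ± 0.35 (SE) at an adjusted p of 0.356 in edgeR.

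Fn1 and Vcan encode matrix proteins. Fn1, fibronectin, was at 12.7, 19.4, 21.2 and 15.5 CPM in controls and at 5.55, 5.36, 0 and 0 CPM in cKO, from 54 and 7 UMIs (edgeR adjusted p = 0.383). Vcan, the proteoglycan versican, was at 20.3, 13.7, 18.0 and 15.5 CPM in controls and at 7.77, 2.68, 3.33 and 1.77 CPM in cKO, from 52 and 12 UMIs (log2 fold change -1.96 ± 0.41, SE; edgeR adjusted p = 0.383). Every control library was above every cKO library for both genes. Of the 6 astrocyte genes, 3 had a lower mean in cKO. Igfbp5 was at 15.3, 31.9, 32.8 and 22.1 CPM in controls and at 7.77, 13.4, 5.56 and 10.6 CPM in cKO, with no overlap (log2 fold change -1.63 ± 0.36, SE; edgeR adjusted p = 0.482). Pax2 was at 0, 10.2, 30.7 and 6.63 CPM in controls and 0, 0, 0 and 8.87 CPM in cKO, and Gfap averaged 4.73 and 2.33 CPM, both under the filter. Without the filter edgeR called Pax2 and Igfbp5. The other 3 genes averaged 32.4 and 37.5 CPM (Aldh1l1), 8.50 and 11.0 CPM (S100b) and 45.3 and 47.1 CPM (Slc14a1) in that order. The part of astrocyte RNA in the Fn1 and Igfbp5 values was not tested, since both fell under the filter once the 11 nuclei with a Pax2 UMI were left out. Vcan kept a log2 fold change of -1.95 without them. That choice was made after the values were seen.

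The 6 genes were also read in RGC, amacrine and rod-marker nuclei. How many of all genes tested are higher there than in glia was not counted. A neuronal source of the 6 differences was not tested. Rod-marker nuclei had 12.2 CPM of Fn1 against a glial mean of 9.95 CPM, with 0.626 CPM in RGC and 1.22 CPM in amacrine nuclei. Amacrine nuclei had 73.6 CPM of Iqgap2 and 46.3 CPM of Vcan, against glial means of 22.1 and 10.4 CPM. Iqgap2 lay below its glial mean in RGC (1.70 CPM) and rod-marker nuclei (21.0 CPM). Under stricter limits on neuronal transcripts Iqgap2, Vcan and Fn1 fell under the filter. Nxph1, which encodes a ligand of neurexins, was at 54.7, 174, 111 and 201 CPM in controls and at 57.7, 48.2, 12.2 and 7.09 CPM in cKO, with 176 CPM in RGC nuclei. One cKO library lay above the lowest control, so the groups overlapped (log2 fold change -2.15 ± 0.44, SE; edgeR adjusted p = 0.383). The zinc finger gene Zfp804b was at 1504, 1533, 1349 and 1747 CPM in controls and at 1248, 1157, 1050 and 1023 CPM in cKO, against 1397 CPM in RGC nuclei (log2 fold change -0.50 ± 0.10, SE; edgeR adjusted p = 0.383). The teneurin gene Tenm3, which acts in synaptic matching, was at 184, 205, 241 and 177 CPM in controls and at 133, 115, 118 and 154 CPM in cKO, against 1027 CPM in RGC nuclei (log2 fold change -0.68 ± 0.15, SE; edgeR adjusted p = 0.482). With stricter limits on neuronal transcripts the log2 fold change was -1.62 for Nxph1, -0.47 for Zfp804b and -0.15 for Tenm3. With the highest-scoring doublets removed it was -2.14 for Iqgap2, -1.82 for Nxph1, -0.33 for Zfp804b and -0.30 for Tenm3. With 0 UMIs of the vascular genes other than Flt1 and of the pericyte genes it was -1.44 for Nxph1, -0.17 for Zfp804b and -0.16 for Tenm3. Neuronal list sums overlapped between the groups, at 263 ± 100.5 CPM in controls and 283 ± 57.1 CPM in cKO for the 7 RGC genes, and 449 ± 109 and 370 ± 144 CPM for the 7 bipolar genes (SD, 4 libraries a group). The 6 amacrine genes had the higher mean in cKO, at 57.7 ± 27.1 CPM in controls and 88.5 ± 40.2 CPM in cKO. Nxph1 was at 171 CPM in the rod-marker class, which also holds bipolar transcripts. The bipolar gene Grik1 averaged 57.1 CPM in controls and 31.7 CPM in cKO and was not called with the filter (edgeR adjusted p = 0.999). Without the filter edgeR called it lower in cKO (adjusted p = 0.0262). Grik1 was at 237 CPM in RGC, 242 CPM in amacrine and 398 CPM in rod-marker nuclei.

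The 6 genes with the lowest p among those higher in cKO were Lars2, Lap3, Hcfc2, Guca1b, Grk1 and Aqr, each with an edgeR adjusted p of 0.999. Guca1b and Grk1 belong to the phototransduction machinery of photoreceptors. Guca1b was at 40.7, 42.1, 46.6 and 59.6 CPM in controls and at 74.4, 110, 71.1 and 62.1 CPM in cKO, with 494 CPM in free RNA. Grk1 was at 28.0, 25.0, 27.5 and 37.6 CPM in controls and at 47.7, 48.2, 53.3 and 44.3 CPM in cKO, with 195 CPM in free RNA. The sum of the rod genes averaged 1718 ± 227 CPM in the control libraries and 2519 ± 1161 CPM in the cKO libraries (SD, 4 libraries a group). With stricter neuronal limits, which also cap the rod UMIs of a nucleus, the log2 fold change of Guca1b went from 0.69 to 0.27, and Grk1 fell under the filter. Lars2, a mitochondrial leucyl-tRNA synthetase, was at 238, 282, 234 and 212 CPM in controls and at 345, 509, 297 and 328 CPM in cKO, with 2593 CPM in free RNA. Lap3, an aminopeptidase, had a log2 fold change of 1.24 ± 0.34, Hcfc2 of 0.97 ± 0.27 and Aqr, a splicing helicase, of 0.62 ± 0.18 (SE).

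**Figure D5:**
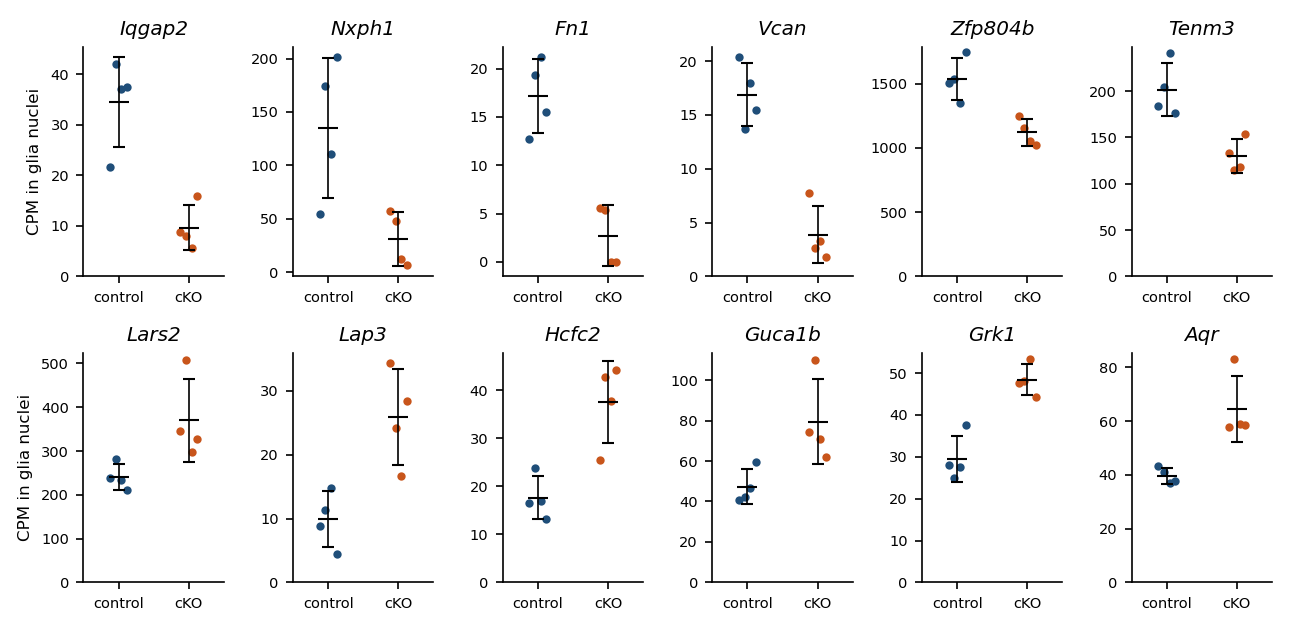
CPM in glia nuclei of the 6 genes with the lowest p in each direction, with a dot for each of the 4 control and 4 cKO libraries, a bar for the group mean and whiskers of 1 SD. None passed adjustment in the filtered edgeR fit. The 6 lower genes passed it without the filter, in a fit not read as a measure of the spread between pools. Of these 6, Nxph1 is the one whose groups overlap.

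Groups of genes for the known tasks of Müller glia were then read in the same fit. From each list 2 genes are named by CPM, which is not scaled by length and sets no order between genes. The 12 lists held 122 distinct genes, of which 87 were tested. None was called (smallest edgeR adjusted p = 0.999), and 4 (4.60%) had an unadjusted p under 0.05, beside 2.95% of all genes tested. The groups did not overlap for 4 genes (4.60%), beside 2.32% of all genes.

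Neurotransmitter uptake was represented by the glutamate transporter gene Slc1a2 at a mean of 515 CPM and the GABA transporter gene Slc6a11 at 379 CPM, and the 6 members tested of 8 had a median log2 fold change of 0.03. For potassium, water and pH handling, 10 of 12 were tested, with a median of 0.06, and Dmd, dystrophin, was at 509 CPM and Aqp4 at 439 CPM. Dmd lay below its 3573 CPM in rod-marker and 673 CPM in amacrine nuclei and above its 397 CPM in RGC nuclei. The bicarbonate transporter gene Slc4a4 was at 8.90, 26.2, 47.6 and 19.9 CPM in controls and at 13.3, 2.68, 7.78 and 12.4 CPM in cKO, with overlapping groups (log2 fold change -1.48). It was at 22.5 CPM in RGC nuclei. Retinoid handling (5 of 8 tested, median -0.18) included the retinol dehydrogenase gene Rdh10 at 111 CPM and the retinaldehyde dehydrogenase gene Aldh1a1 at 66.9 CPM. Glycine and serine metabolism (5 of 8, median 0.29) included Dld at 32.6 CPM, below its 92.3 CPM in free RNA, and Psat1 at 29.7 CPM.

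All 16 genes of glial transcription factors and Notch signalling were tested, with a median log2 fold change of -0.06, and Nfia and Nfib, which act in gliogenesis, were at 1502 and 1012 CPM. Id1, an inhibitor of helix-loop-helix factors, was at 24.2, 18.2, 27.5 and 35.3 CPM in controls and at 20.0, 5.36, 7.78 and 8.87 CPM in cKO (log2 fold change -1.18), with overlapping groups. In the gliosis list, 9 of 16 were tested with a median of -0.04, and the ferroxidase gene Cp was at 1377 CPM and Stat3 at 79.6 CPM. Of this list the protease inhibitor gene A2m was at 10.2, 28.5, 25.4 and 39.8 CPM in controls and at 8.88, 5.36, 7.78 and 14.2 CPM in cKO (log2 fold change -1.47), with overlapping groups. The complement gene C4b was at 34.3, 30.7, 26.5 and 26.5 CPM in controls and at 22.2, 24.1, 15.6 and 23.1 CPM in cKO (log2 fold change -0.56), with no overlap. These 2 genes and Slc4a4 and Id1 were the 4 at an unadjusted p under 0.05, and all had an edgeR adjusted p of 0.999. Without the filter edgeR called Slc4a4 (adjusted p = 0.0262) and A2m (adjusted p = 0.0487). The log2 fold change of Slc4a4 was -0.93 without control replicate 3. Slc4a4 fell under the filter once nuclei with a Pax2 UMI were left out, and also under stricter neuronal limits.

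The VEGF list had 6 of 8 members tested and a median log2 fold change of -0.04. Besides the receptors Flt1 and Kdr it held the ligand gene Vegfa, which was at 231 to 340 CPM in glia and at a mean of 147 CPM in RGC nuclei. Of the mechanically gated channels, 3 of 10 were tested (median -0.04), namely Piezo1, Pkd2 at 112 CPM and Tmem63b at 70.4 CPM, and the rest fell under the filter. Tmem63b lay below its 213 CPM in free RNA and 125 CPM in RGC nuclei. In the Hippo pathway, which acts downstream of mechanical cues, 8 of 10 were tested (median -0.02). Its transcription factor gene Tead1 was at 230 CPM and its coactivator gene Wwtr1 at 143 CPM, and Ankrd1 had 0 UMIs.

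Lipid and sterol handling (10 of 10, median 0.06) included Apoe at 1627 CPM and Abca8b at 1270 CPM. Apical junction and adhesion (7 of 8, median -0.08) included Cdh2, N-cadherin, at 1615 CPM and Crb1 at 1184 CPM. Of the immediate early and stress genes 2 of 8 were tested (median 0.21), Jun at 26.1 CPM and Ddit4 at 20.8 CPM, each below its own level in free RNA. The median over all 10154 genes was 0.000240.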

How the data were processed

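Nuclei were isolated from pooled retinae, sorted by FACS and run with the 10x Genomics Next GEM 3′ chemistry. The deposited files were unfiltered matrices of UMI counts per gene and barcode, made by the authors with Cell Ranger 7.0.0 on GRCm39; later ambient RNA removal and filtering in the study are not in these counts. No doublet was removed in the main analysis, and Scrublet removal was an alternative. The members and gene lists were chosen with earlier results of these data known.

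Counts were summed per library over glia nuclei and compared with edgeR 4.0.16 (R 4.3.3; filterByExpr, TMM, quasi-likelihood F test, no covariate), with DESeq2 1.42.0 as an alternative. Genes were called at an adjusted p below 0.05 where the log2 fold change was also beyond 0.5 in size. CPM values were compared by exact permutation tests (numpy 2.4.6), unpaired between genotypes and paired within libraries between cell classes. Scripts were tested on simulated data. Amacrine nuclei had at least 3 UMIs of Gad1 and Gad2 and rod-marker nuclei at least 4 of the rod genes. Library totals were 35697629 to 60088630 UMIs. Poisson intervals (scipy 1.17.1) are 95% and, like the limit of 3 counts, cover counting error only.

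Named genes were Piezo1, Flt1 and Piezo2, the 15 genes with the highest ratio of glia to other nuclei, the 6 of lowest genotype p in each direction, and in each function list the 2 of highest level and any at an unadjusted p under 0.05. Alternatives were a glial minimum of 6 UMIs, a depth minimum of 2000 UMIs, stricter vascular and neuronal limits, doublet removal, thinning to 1000 UMIs, other size factors, no filter on low counts and leaving out each library. Of all passing barcodes, 181 sequences recurred between libraries over 28 pairs.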

Additional observations from a re-analysis of the deposited data

Results flagged for a closer look

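In groups of 4 libraries, 7 of 142 values examined had a library far from the other 3 by Dixon's criterion, which chance meets in about 1 of 20 groups. The rod genes summed to 4246 CPM in glia of cKO replicate 11, against 1765 to 2147 CPM in the other cKO libraries. The pigment epithelium genes summed to 99.0 CPM in control replicate 2, against 11.0 to 18.0 CPM in the other controls. The horizontal cell genes summed to 75.1 CPM in control replicate 3, against 20.5 to 29.2 CPM. Slc13a5 was at 67.4 CPM in cKO replicate 13, against 93.8 to 98.9 CPM. Ust was at 1361 CPM in control replicate 4, against 1160 to 1175 CPM. Tmem63b was at 95.5 CPM in cKO replicate 12, against 60.3 to 61.6 CPM. Aqr was at 83.0 CPM in cKO replicate 11, against 57.7 to 58.9 CPM.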

How the results depend on the processing

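Without a filter on low counts, 31 genes were called between genotypes, and 0 under each other alternative (smallest adjusted p 0.0910 in edgeR, without control replicate 1). The Piezo1 genotype difference became 0.536 CPM with stricter neuronal limits and 5.12 CPM with 0 UMIs of the vascular genes other than Flt1 and of the pericyte genes, which also moved that of Flt1 to 42.1 CPM. Thinning to 1000 UMIs moved the Piezo1 difference to -10.8 CPM (exact permutation p = 0.114), from 31 UMIs. With Flt1 at 0 too, the Piezo1 difference between glia and RGC nuclei became -0.741 CPM, from 52 nuclei and 0 UMIs, and 1 library had enough nuclei for the genotype fit, which was not run. The Piezo1 difference between glia with and without endothelial UMIs became -14.6 CPM with stricter neuronal limits and -14.0 CPM with 0 of those genes except Flt1, and that of Flt1 became 370 and -863 CPM under the same settings in that order. Thinning lowered the share of nuclei with Piezo1 to 1.30% by construction. At 2000 UMIs or more, 3 endothelial nuclei remained. Leaving out 1 library gave genotype differences of -3.92 to 0.747 CPM for Piezo1 (reversed without cKO replicate 13) and -73.0 to 47.2 CPM for Flt1 (above 0 in 3 cases, at 11.4 when control replicate 1 was left out, 47.2 for cKO replicate 11 and 14.4 for cKO replicate 13). Differences from RGC nuclei were 14.4 to 16.4 CPM for Piezo1 and 1771 to 1823 CPM for Flt1. Differences with and without endothelial UMIs were -15.6 to 12.4 CPM for Piezo1 (-15.6 without control replicate 2) and -400.5 to 66.5 CPM for Flt1 (66.5 without control replicate 3 and 49.9 without cKO replicate 12). The glia share difference was -1.63 to -0.512 points when 1 library was left out. It was -0.441 points at 2000 UMIs or more (exact permutation p = 0.8). With 0 UMIs of the vascular genes other than Flt1 and of the pericyte genes it was -0.356 points, and with Flt1 at 0 too -0.0341 points. The cause of the reversals in Piezo1 and Flt1 was not tested. No paired analysis was possible because control and cKO libraries share no replicate number. Depth limits Piezo1, at 4 to 19 UMIs a library, and Piezo2, at 0 to 3.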
